A study of Mus musculus with 24 samples.

Results

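The comparison described here set prefrontal cortex libraries of lithium-treated Dyrk1a heterozygotes against those of vehicle-treated wild-type mice. The treated mice were heterozygous, Dyrk1a+/I48X (HT), and the controls were wild type (WT). All were C57BL/6J mice of both sexes at postnatal day 40. The 12 libraries were chosen by their labels: 6 HT lithium and 6 WT vehicle, 3 females and 3 males in each arm, out of 24 in the series. The other 12 were HT mice on vehicle or fluoxetine, 6 each. RNA was sequenced in bulk after poly(A) selection with a stranded kit. Neither the dose of lithium, its route nor its duration is stated in the labels. The labels do not tie each library to an animal of its own, so p-values reflect only the spread among these libraries, part of which could be technical.

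The 2 arms differ at once in genotype, in drug and in the batch named in the labels. All 6 lithium libraries are in batch P40_L2, and all 6 WT libraries are in batch P40_L1. A difference between the arms can therefore belong to the allele, to lithium or to the batch, and these cannot be told apart within the 12 libraries. The only other library of P40_L2 was HT fluoxetine female 3, and its values are given beside results that need it.

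DYRK1A is a dosage-sensitive protein kinase of neurons and their precursors, and loss of a copy in people causes a neurodevelopmental syndrome with microcephaly, intellectual disability and autistic features. It primes several proteins for phosphorylation by glycogen synthase kinase 3 and opposes calcineurin signalling through NFAT transcription factors. Lithium, a mood stabiliser, inhibits glycogen synthase kinase 3 and inositol monophosphatase, and so acts on beta-catenin signalling and on the phosphoinositide cycle.

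Recovered depth ran from 24133344 to 30912048 reads in the lithium libraries and from 24771291 to 30442381 in the WT libraries. Levels are normalised read counts, and fold changes are log2(lithium + 1) minus log2(WT + 1), from limma with sex as a term, ± standard error. The 12 markers of excitatory cortical neurons were detected in every library, with a summed level of 112569 to 232758 in lithium and 129392 to 206587 in WT. Olfactory bulb markers varied most: the sum of all 15 ran from 2371 to 29583 in lithium and from 3767 to 27934 in WT, with HT lithium male 1 and WT female 2 highest in their arms. Of these markers Tbx21, Slc6a3 and Barhl2 were at 0 in 1 library each and Ms4a15 in 2. The first principal component of the 12 libraries held 39.1% of the variance and placed those same 2 libraries together at -58.4 and -50.3, apart from the others at -10.2 to 35.8. WT female 1 held the most Drd2, a striatal dopamine receptor, at 371 against 19.4 to 104 in the other WT libraries.

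Rpl15-ps3, a processed pseudogene of the 60S ribosomal subunit gene Rpl15, was the single gene that passed the test, and it was listed at 0 in every lithium library. limma called it alone among the 16782 genes tested (Benjamini-Hochberg adjusted p = 0.0435), which is 0.00596% of them. Rpl15-ps3 met the filter, a mean of at least 10 over the 12 libraries, only through the WT libraries. Its lithium values, all 0, have no spread, while limma fits a common spread to both arms, so this p-value calls for caution. At an unadjusted p under 0.05 there were 436 genes, 243 higher and 193 lower in lithium, where 839 are expected by chance. That number depended on the libraries: it was 1581 without HT lithium male 1 and 310 to 534 without any other library. It was 1123 without the 2 libraries highest for olfactory bulb markers and 923 with the score of those markers as a covariate. It is therefore no measure of how little the arms differ. edgeR called 0 genes, with 441 at an unadjusted p under 0.05. DESeq2 called 7 of 16766 (0.0418%), with 410 at an unadjusted p under 0.05: Rpl15-ps3, Mxd4, Gm12671, Gm28048, Gm20716, Rpl17 and Rpl41.

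Rpl15-ps3 (ENSMUSG00000061167) lies on the minus strand of chromosome 9 from 22185607 to 22186221 on GRCm38. Its 615 bases are shown in part because they equal a stretch of the Rpl15 messenger. They are contained whole in 4 of the 6 annotated Rpl15 transcripts (chromosome 14, 18267823 to 18271391, minus strand), where they run from start to stop codon. A further pseudogene, Gm4294 (chromosome 12, 12023045 to 12023658, plus strand), matches Rpl15-ps3 over 613 compared bases with 1 difference, G611A, counted from 1 at the first base of Rpl15-ps3. The last 60 bases of Rpl15-ps3 and the aligned bases of the other genes, read 5′ to 3′ from the GENCODE M21 transcripts, carry that position in capitals.
Rpl15-ps3: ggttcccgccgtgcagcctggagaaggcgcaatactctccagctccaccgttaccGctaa
Rpl15: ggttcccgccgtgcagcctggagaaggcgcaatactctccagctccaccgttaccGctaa
Gm4294: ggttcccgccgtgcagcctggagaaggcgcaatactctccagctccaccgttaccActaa

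In WT libraries Rpl15-ps3 stood at 45.0, 14.2 and 12.3 in females and 7.37, 20.97 and 118 in males. All 6 WT libraries were above all 6 lithium libraries, which were at 0. A floor of 3 reads per library equals a normalised count of at most 3.69 in lithium. The WT mean of 36.3 ± 42.3 (SD, n = 6) was 9.85-fold above it, or 5.41-fold without WT male 3 (WT mean 19.96). The lowest WT library stood at 7.37. The floor covers the sampling of reads only and sets no bound on expression, because Rpl15 holds the whole sequence and could take its reads. The fitted change of -4.60 ± 0.55 depends on the pseudocount and is no bound either. The call was lost with a pseudocount of 5, in the fit over all 24 libraries and with any library other than WT male 1 left out, and a batch term in the 24-library fit gave 0.93 ± 1.53. HT vehicle libraries, in batch P40_L1, held 54.5 ± 37.3, and the P40_L1 fluoxetine libraries held 5.20 to 187. HT fluoxetine female 3, in P40_L2, was also listed at 0. Rpl15 itself, with the same sequence, stood at 4257 ± 132 in WT and 4385 ± 193 in lithium (0.04 ± 0.04, adjusted p = 0.9999 from limma). The zeros fell in all 7 libraries of P40_L2 and in none of the other 17, for a sequence that Rpl15 holds whole.

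A further 7 features were at 0 in all 6 lithium libraries, and all 8 were at 0 in HT fluoxetine female 3 as well. Of the 18240 genes in the deposited data, 8 were thus at 0 in every lithium library, and 5 were at 0 in every WT library. To see how far reads could belong to another gene, each feature's 31-base words were looked up in the transcripts of all other genes. The median over the 16771 tested genes with a value was 0.346% of words shared, and 1.87% of them shared at least 89%, a level chosen after the 8 features had been seen to lie above it. Gm12671 shared 100% of its words with Gapdh, a glycolytic enzyme gene, and Rps6-ps4 100% with Rps6, a 40S ribosomal subunit gene. Pet117, a cytochrome oxidase assembly factor, shared 100% with Kat14, an acetyltransferase gene, and Gm47924 100% with Gm48271. Gm9531 shared 97.4%, Gm3650 95.7% and Gm28048 98.9%, mostly with Set, Spg11 and B3gnt2 in that order.

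Of these, Gm12671 had the next smallest p, with WT values of 404, 229.7 and 169.5 in females and 169.5, 88.5 and 0 in males. Gm28048 stood in WT at 90, 86.9 and 29.6 in females and 0, 52.4 and 137 in males. Both overlap the lithium values, since a WT male was at 0 in each, and neither passed limma (adjusted p = 0.488 and 0.691). Both met the filter on the mean of the 12 libraries only through the WT libraries. Their main partners differed by less than the spread between libraries: Gapdh held 72890 ± 5947 in WT and 76910 ± 6834 in lithium, and B3gnt2 held 627 ± 114 and 644 ± 74.9. Among the 17 libraries of P40_L1, 0 were at 0 for Rpl15-ps3, 1 for Gm28048, 4 for Gm12671, 5 each for Rps6-ps4 and Gm3650, 7 for Gm47924, 8 for Pet117 and 11 for Gm9531.

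**Figure D1:**
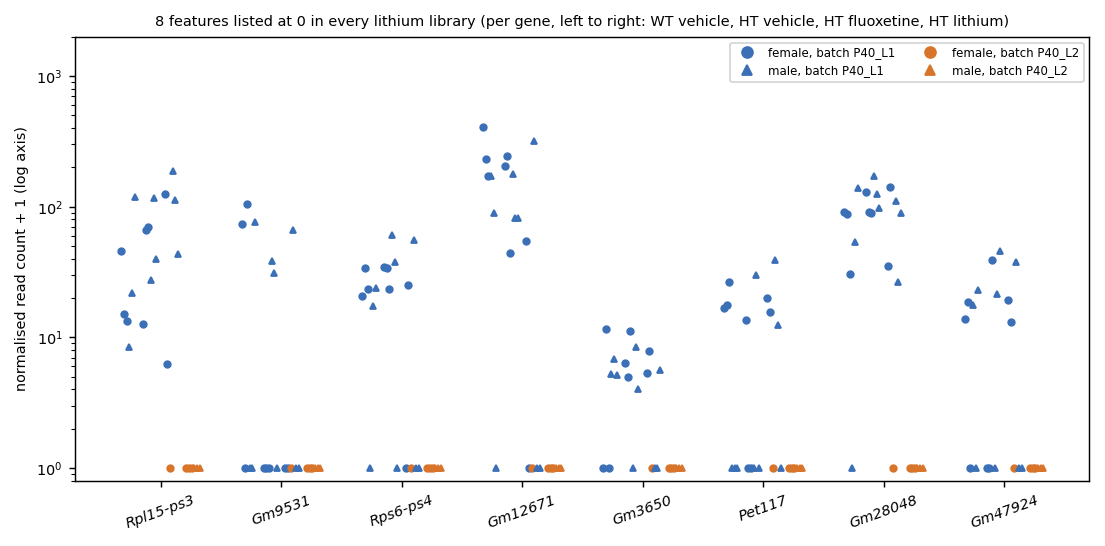
Normalised read count plus 1 on a log axis for the 8 features listed at 0 in every lithium library, in all 24 libraries, with circles for females, triangles for males and colour for the batch in the labels. Within each gene the arms run from WT vehicle on the left to HT lithium on the right, and every orange point, from the 7 libraries of P40_L2, lies at 0 (plotted at 1).

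Dyrk1a, the gene that carries the allele (ENSMUSG00000022897), was higher in the lithium libraries than in WT. WT libraries ran from 2088 through a median of 2169 to 2349, and lithium libraries from 2254 through 2454 to 2584. The ranges overlap, because WT female 1 and WT male 1 were above the lowest lithium library. The mean went from 2200 ± 90.8 to 2447 ± 113 (SD, n = 6), 11.25% higher, with 6 of 6 lithium libraries above the WT mean. A two-sided exact permutation test within sex over 400 arrangements gave p = 0.01, where the smallest possible is 0.005, and it stayed between 0.01 and 0.02 with any library left out. Across all genes the change of 0.15 ± 0.04 did not pass limma (adjusted p = 0.9999), and with a batch term in the 24-library fit it was 0.08 ± 0.08. HT vehicle libraries held 2254 to 2431 and HT fluoxetine libraries 2353 to 2589, all above the WT median. A premature stop need not lower its messenger, so the level checks neither genotype nor protein.

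The other genes with the smallest p, up to 20, did not pass limma (adjusted p from 0.414 to 0.9999) and are given as values. Among all tested genes, the 6 lithium libraries lay above all 6 WT libraries for 26 genes (0.155%) and below all of them for 11 (0.0655%). Of the 20 with the smallest p, 12 stood higher and 8 lower in lithium.

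Mxd4, a repressor that pairs with MAX and opposes MYC, had the smallest p of the genes with sequence of their own. WT libraries held 2943 to 3239 with a median of 3174, and lithium libraries held 3564 to 3995 with a median of 3734. The arms did not overlap. The change was 0.25 ± 0.04 (limma adjusted p = 0.414; DESeq2 adjusted p = 1.25e-05; edgeR adjusted p = 0.881), 0.22 in females and 0.28 in males. HT vehicle libraries, which carry the batch label of the WT libraries, held 3416 to 3921, and HT fluoxetine libraries 3502 to 4357, so every HT library lay above all 6 WT libraries. Lithium against HT vehicle stood at 0.02.

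Eva1a, which encodes a lysosomal and endoplasmic reticulum membrane protein of autophagy, showed the same layout. WT libraries held 197 to 230.2 with a median of 218, and lithium libraries 248 to 295 with a median of 259. The arms did not overlap, and the change was 0.30 ± 0.06 (limma adjusted p = 0.9999). HT vehicle libraries held 211 to 303, with 5 of 6 above every WT library. Map3k15, a stress-activated kinase of the ASK family, lay on the other side: WT libraries held 57.9 to 81.6 and lithium libraries 35.9 to 53.2. HT vehicle libraries, at 42.9 to 53.8, were also all below the lowest WT library. HT fluoxetine libraries ran from 43.4 to 73.0 and overlapped both arms. The change in lithium was -0.53 ± 0.13, and -0.21 ± 0.29 with the batch term.

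Tmed1, a p24 cargo receptor between endoplasmic reticulum and Golgi, held 204 to 226 in WT and 238 to 267 in lithium (0.23 ± 0.06). HT vehicle libraries held 216 to 253. Hepacam, an adhesion protein of astrocyte end feet, held 1844 to 2108 in WT and 2068 to 2220 in lithium, so the arms overlapped by 1 WT library. Htra1, a secreted serine protease, held 2259 to 2993 and 2841 to 3172 (0.23 ± 0.06). Chchd1, a protein of the mitochondrial ribosome, held 362 to 397 in WT and 399 to 448 in lithium, and 371 to 415 in HT vehicle. Its change was 0.18 ± 0.04, against 0.03 for HT vehicle.

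Low-level genes made up much of the lower side. 4921536K21Rik stood at 9.47 to 18.8 in WT and 4.68 to 8.71 in lithium, and at 3.04 to 16.6 in HT vehicle (-1.14 ± 0.24). Uox, the urate oxidase gene, held 10.6 to 15.7 in WT and 5.17 to 9.44 in lithium. The lithium means of 4921536K21Rik (6.15) and Uox (7.32) lay below 10, so both met the filter on the 12-library mean only through WT. Low genes on the lower side are thus partly selected by that filter. Nod2, an intracellular sensor of bacterial peptidoglycan, held 16.3 to 21.4 and 8.61 to 14.98. Nat8f3, of a family of N-acetyltransferases, has near copies with which reads could be shared: 49.2% of its 31-base words are in Nat8f7. It stood at 137 ± 17.9 in WT and 98.2 ± 12.3 in lithium. On the higher side Acpp, an ectonucleotidase that makes adenosine, held 9.32 to 22.0 in WT and 22.7 to 44.3 in lithium (0.98 ± 0.23).

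Gm20716, Pcdha5, Rpl17 and Rpl41 belong to the 20 and also share words with other genes. Gm20716 shares 99.5%, of which 83% are in the neuronal transcription factor gene Adnp and 16.5% in Dpm1. It held 1572 to 1889 in WT and 2023 to 2489 in lithium, with no overlap (0.36 ± 0.07). HT vehicle libraries ran from 1437 to 2899, around the WT values. Pcdha5, a clustered protocadherin of neuronal identity, shares 60.9% with Pcdha11; it held 305 to 383 in WT, 389.8 to 445 in lithium and 305.7 to 425 in HT vehicle. Zfp874b, a zinc finger gene, held 296 to 354 and 348 to 384.

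**Figure D2:**
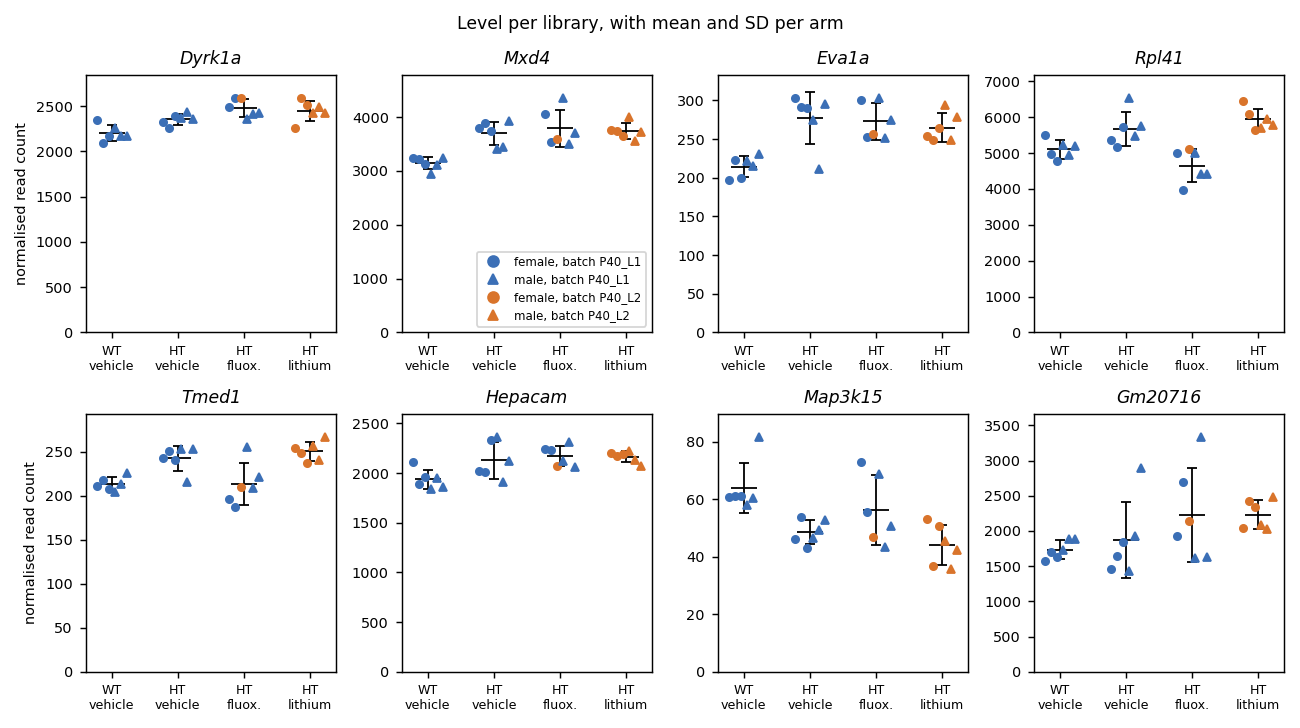
Normalised read count of 8 genes in each of the 24 libraries, by arm, on axes that start at 0; bars give the mean and SD per arm (n = 6), circles are females, triangles males, and colour is the batch. For Mxd4 all HT libraries, treated or not, lie above the 6 WT libraries at 2943 to 3239.

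Side by side with the untreated heterozygotes, fitted over all 24 libraries, HT vehicle against WT called 0 of 16825 genes by limma (0%), with 455 at an unadjusted p under 0.05. HT lithium against HT vehicle called 2 of 16825 (0.0119%), Gm28048 and Rpl15-ps3, with 463 at an unadjusted p under 0.05. Other tools were not run on these contrasts. They share WT or lithium libraries with the main comparison, so their values are given next to each other and not as separate support. Of the genes above, Mxd4 stood at 0.25 for lithium against WT and 0.23 for HT vehicle against WT, Eva1a at 0.30 and 0.37, Tmed1 at 0.23 and 0.18, Hepacam at 0.16 and 0.13, and Map3k15 at -0.53 and -0.38. HT fluoxetine female 3, which carries the batch label of the lithium libraries, held 3600 of Mxd4, 256.4 of Eva1a, 46.7 of Map3k15 and 2147 of Gm20716, on the lithium side of every WT library. It held 209.7 of Tmed1, 365 of Chchd1 and 5114 of Rpl41, within the WT ranges. For lithium and for HT vehicle against WT, Gm20716 stood at 0.36 and 0.07, Pcdha5 at 0.29 and -0.003, and Chchd1 at 0.18 and 0.03. HT fluoxetine against WT stood at 0.311 for Gm20716, 0.174 for Pcdha5 and -0.096 for Chchd1. The HT fluoxetine libraries, most of them in the batch of the WT libraries, held 1623 to 3332 of Gm20716.

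The ribosomal protein genes, the longest list, had the highest number of members on one side. Shorter lists were nearly as one-sided, with 12 of 13 striatal projection neuron markers lower and 10 of 11 meningeal fibroblast markers higher. Library scores on the ribosomal list overlapped, at -0.04 to 0.16 in lithium and -0.12 to 0.03 in WT. Of the 46 cytosolic ribosomal proteins tested, 43 were higher in lithium, with a median change of 0.08, where 47.62% of all genes were higher and the median over all genes was -0.004. No member passed limma. At an unadjusted p under 0.05, 9 were higher and 2 lower, beside 1.45% and 1.15% of all genes. Rps14, of the 40S subunit, held 3532 to 4209 in WT and 4280 to 4622 in lithium. Rpl13a, of the 60S subunit, held 4415 to 4911 and 4931 to 5538. For both genes no WT library reached a lithium library, and no other member of the list was separated in that way. Rps18 (0.15 ± 0.05), Rpl10a (0.18 ± 0.07), Rplp1 (0.21 ± 0.09) and Rpl19 (0.09 ± 0.04) were further examples. Rpl14 at -0.18 ± 0.07 and Rps27 at -0.62 ± 0.24 lay the other way.

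Outside the list, Rpl41 held 4780 to 5513 in WT and 5647 to 6459 in lithium (0.22 ± 0.05), and Rpl17 held 4315 to 4797 and 4932 to 5330 (0.18 ± 0.04). The arms did not overlap for either gene, and DESeq2 called both (adjusted p = 0.03). Ribosomal protein genes have many processed copies, and reads could be split among them: 23.2% of the words of Rpl41 are in Gm10076 and 40.7% of those of Rpl17 in Rpl17-ps8. HT vehicle libraries held 5167 to 6536 of Rpl41 and fluoxetine libraries 3969 to 5114, the latter all below the lowest lithium library. HT fluoxetine female 3, of the batch of the lithium libraries, was the highest of them at 5114. Next came HT fluoxetine male 1 at 5005 and female 1 at 4991, both in P40_L1. The list median was 0.059 for HT vehicle against WT and 0.075 in females and 0.059 in males for lithium against WT. It was 0.051 without HT lithium female 1, whose score on the list, 0.156, was the highest of the 12. With a batch term in the fit over 24 libraries the median was 0.129, while Rpl41 stood at 0.03 ± 0.13 and Rpl17 at -0.04 ± 0.13.

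Nuclear genes of oxidative phosphorylation lay mostly on the same side, 38 of 44 with a median of 0.05 and 3 at an unadjusted p under 0.05. These were Uqcrh of complex III (from 3194 ± 134 to 3431 ± 121, 0.10 ± 0.04), Ndufa4 of cytochrome oxidase (0.12 ± 0.05) and Cox7c of the same complex (0.12 ± 0.05). None passed limma. The median was 0.096 in females and -0.01 in males. The 13 genes encoded in mitochondrial DNA had a median of -0.02, with 3 higher, 0.176 in females and -0.212 in males.

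**Figure D3:**
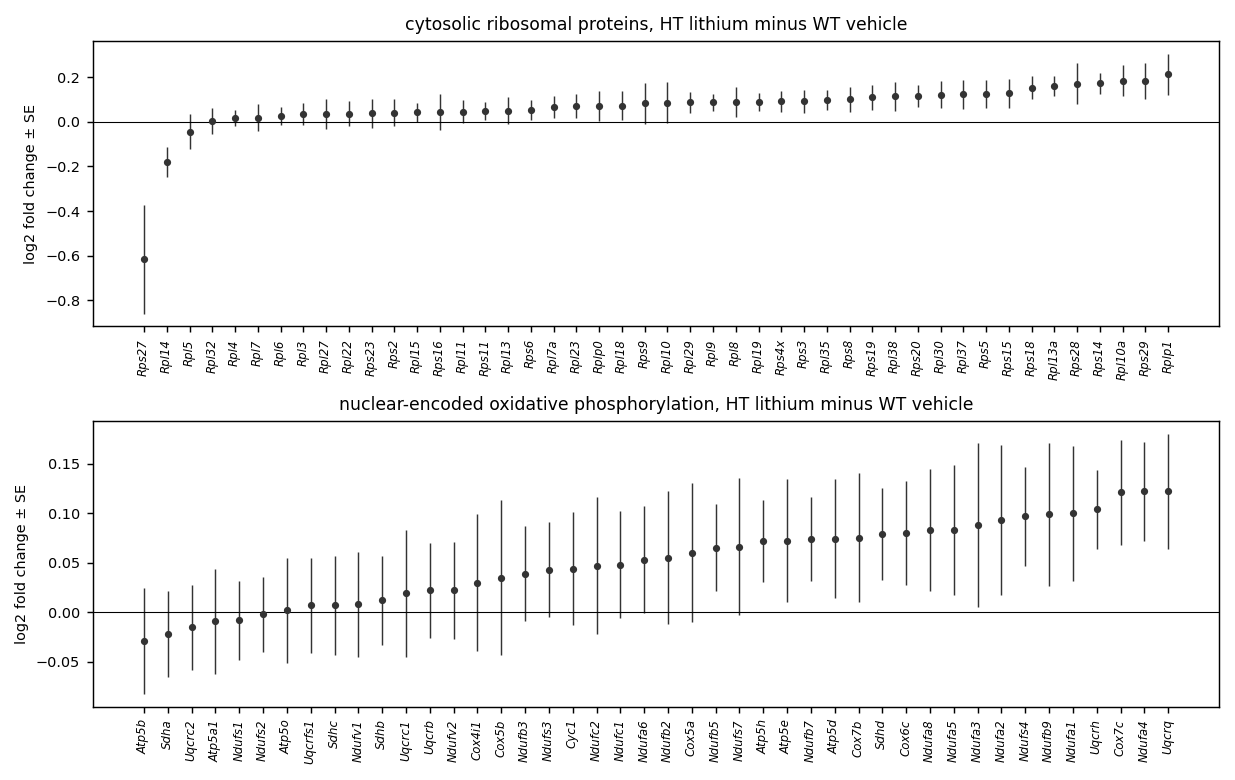
Log2 fold change of lithium against WT with its standard error, for the 46 cytosolic ribosomal protein genes (upper) and the 44 nuclear genes of oxidative phosphorylation (lower), each sorted. In the upper plot 43 points lie above 0, and Rps27 at -0.62 and Rpl14 at -0.18 are lowest; in the lower plot 38 lie above 0.

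Genes for the enzymes that lithium inhibits showed no called change. Of 9 tested, 2 were higher and 7 lower, with a median of -0.05 and none at an unadjusted p under 0.05. Gsk3b, the beta isoform of glycogen synthase kinase 3, held 4749 to 5672 in WT and 4301 to 5273 in lithium (-0.09 ± 0.06). The alpha isoform Gsk3a stood at 0.02 ± 0.09, inositol monophosphatase Impa1 at -0.03 ± 0.04, Impa2 at -0.07 ± 0.10 and the inositol polyphosphate phosphatase Inpp1 at -0.05 ± 0.06. In the inositol supply and phosphoinositide cycle, 7 of 15 genes were higher with a median of -0.04. Examples are the phospholipase Plcb1 at -0.12 ± 0.08, the inositol transporter Slc5a3 at 0.02 ± 0.11, the inositol synthase Isyna1 at 0.02 ± 0.07 and Cds1 at -0.09 ± 0.04. The median standard error over all genes was 0.096.

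In the Wnt and beta-catenin pathway 11 of 23 genes were positive with a median of 0, and 1 had an unadjusted p under 0.05. That was Ccnd1, cyclin D1, a beta-catenin target and DYRK1A substrate. It held 1396 to 1691 in WT with a median of 1583, and 1524 to 1944 in lithium with a median of 1872. HT lithium male 1, at 1524, was far below the other lithium libraries, which ran from 1814 to 1944, all above the WT maximum. The change was 0.24 ± 0.07 (limma adjusted p = 0.9999), and HT vehicle libraries ran from 1465 to 1676. The direct beta-catenin target Axin2 stood at -0.01 ± 0.06, Ctnnb1 itself at 0.07 ± 0.05 and Tcf7l1, a transcription factor of the pathway, at 0.28 ± 0.13. The PI3K, AKT and mTOR genes had a median of -0.003 with 10 of 22 higher.

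In the list of relatives and partners of DYRK1A, which counts Dyrk1a itself as a member, 7 of 11 were higher. The median of 0.08 was -0.013 in females, 0.145 in males, 0.043 without HT lithium male 3, 0.053 without WT male 1 and 0.024 with the batch term. Dyrk1b, the closest paralogue, went from 828 ± 77.4 to 917 ± 56.6 (0.15 ± 0.07), and Dcaf7, a scaffold that binds DYRK1A, from 8114 ± 134 to 8649 ± 571 (0.09 ± 0.04). The calcineurin, RCAN and NFAT genes had a median of -0.03 with 4 of 14 higher. Nfatc4 stood at 0.38 ± 0.15 and the calcineurin regulator Rcan2 at -0.13 ± 0.06. None of these passed limma.

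Autism risk genes lay mostly lower, 29 of 37, by a median of -0.04. Cntnap2, a neurexin-family adhesion protein, held 3703 to 3996 in WT and 3374 to 3737 in lithium (-0.13 ± 0.04). The ranges overlap, and HT vehicle libraries held 3460 to 3861. Dscam, a homophilic adhesion molecule, stood at -0.09 ± 0.04. The 23 genes of the BAF chromatin complex had a median of -0.004. Among synaptic lists, glutamate receptors and postsynaptic density had a median of -0.01 with 10 of 24 higher (0.032 in females, -0.048 in males, 0.041 without HT lithium male 1, -0.103 with a batch term). GABA-A receptors and inhibitory synapse stood at -0.05 with 3 of 16 higher (0.051 in females, -0.127 in males, 0.005 without HT lithium male 1, -0.166 with the batch term). Presynaptic vesicle release stood at -0.01 with 7 of 20 higher (0.106 in females, -0.151 in males), and at 0.081 without HT lithium male 1.

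Cell type lists held no called gene; over all genes, 47.62% were higher, and 1.45% were higher and 1.15% lower at an unadjusted p under 0.05. Astrocyte markers were higher in 12 of 14 cases with a median of 0.09, 4 of them at an unadjusted p under 0.05: Aldh1l1, a folate enzyme (1665 ± 137 to 1849 ± 109, 0.15 ± 0.05), the connexin Gjb6 (1025 ± 169 to 1220 ± 53.3, 0.27 ± 0.09), Sox9 (0.16 ± 0.07) and Fgfr3 (0.13 ± 0.05). S100b, a calcium-binding protein, lay lower at -0.16 ± 0.07. The astrocyte median was 0.027 in females and 0.141 in males, and 0.031 for HT vehicle against WT. The summed level of the list ran from 131781 to 162222 in lithium and from 128594 to 141316 in WT. In bulk tissue, more astrocytes and more RNA per astrocyte cannot be told apart. Mfsd2a, the lipid transporter of brain endothelium, stood at 475 to 594 in WT, 569 to 681 in lithium and 669.6 to 765 in HT fluoxetine (0.25 ± 0.07 for lithium). Rgs5, of pericytes, stood at -0.21 ± 0.08. Neither cell type lay on 1 side: Kdr of endothelium stood at -0.188 ± 0.088 and Pdgfrb of pericytes at 0.095 ± 0.057. Of the 15 endothelial and pericyte markers 10 were higher, with a median of 0.05. Microglial markers had a median of 0.02, myelin and mature oligodendrocyte markers 0.02, and oligodendrocyte precursor markers 0.07. By sex the microglial median was 0.149 in females and -0.092 in males. The myelin median was -0.106 in females and 0.199 in males, and 0.349 with a batch term in the 24-library fit.

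The olfactory bulb and striatal lists, of tissue that borders prefrontal cortex, moved with single libraries. Olfactory bulb markers had a median of -0.63, with 2 of 15 higher, but -2.275 in females and 0.923 in males (0.735 in a fit of males alone), and -0.09 by edgeR. With 1 library left out it ran from -1.502 without HT lithium male 1 to 0.099 without HT lithium female 2. Striatal projection neuron markers had a median of -0.25, with 1 of 13 higher, and -0.016 without WT female 1. Inhibitory neuron markers had a median of -0.22, with 3 of 13 higher. It was -0.093 without HT lithium female 2, -0.126 without WT female 2, -0.275 without WT male 2 and -0.119 by edgeR. Meningeal fibroblast markers had a median of 0.21, with 10 of 11 higher, led by Igf2 (2178 ± 629.7 to 2803 ± 434, 0.39 ± 0.15). With 1 library left out this median stayed between 0.148 and 0.319, but it was 0.063 in females and 0.319 in males. Library scores on the meningeal list overlapped, at -0.29 to 0.49 in lithium and -0.46 to 0.43 in WT. The part of these differences in the lists above was not tested. Adding the bulb score to the fit as a covariate, the ribosomal median was 0.097, the astrocyte median 0.112 and the inhibitory neuron median -0.126.

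Activity and hormone responsive genes differed between the sexes in median. Of 20 immediate early genes 16 were higher in lithium, with a median of 0.16, but -0.39 in females and 0.841 in males. The median was 0.01 without WT male 1, 0.059 without HT lithium male 1 and 0.316 without WT female 2, and it turned to -0.082 with a batch term in the 24-library fit. Arc, a synaptic immediate early gene, ran from 1595 to 8744 in WT and 5224 to 9220 in lithium, and its change was -0.35 in females and 1.47 in males. The scores of WT libraries on this list ran from -0.876 in male 1 to 0.784 in female 2, the WT library highest for bulb markers; whether the list differs between the sexes was not tested. Homer1, a postsynaptic scaffold of the later activity response, stood at 4455 ± 296 in WT and 3678 ± 827 in lithium (-0.30 ± 0.13), and at -0.37 in HT vehicle. Glucocorticoid-induced genes were higher in 13 of 16 cases with a median of 0.11, including the proteoglycan Sdc4 (0.22 ± 0.08) and the sulfotransferase Sult1a1 (0.25 ± 0.10). For HT vehicle these stood at 0.26 and 0.34. None of the genes named passed limma.

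**Figure D4:**
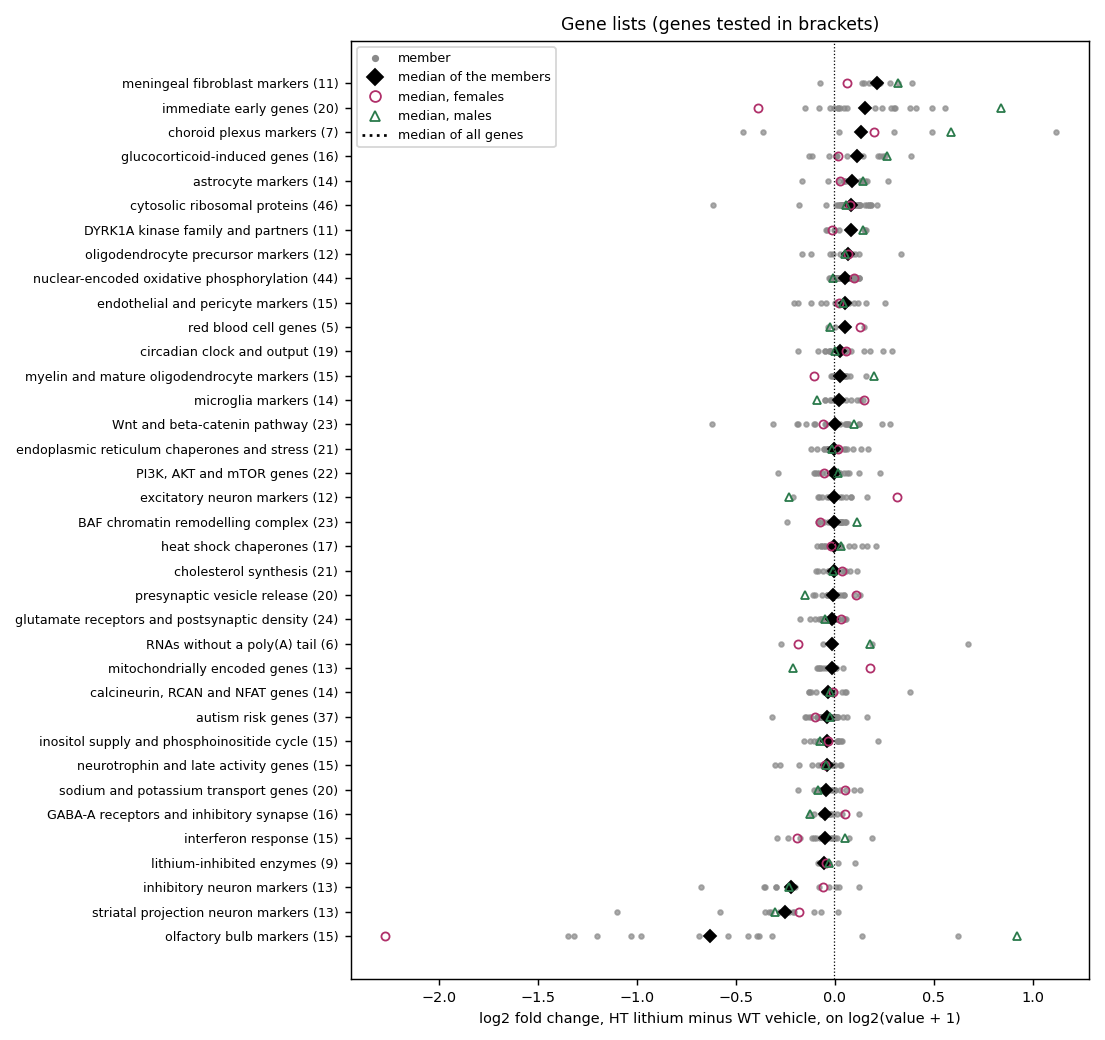
Log2 fold change of lithium against WT for the tested members of 36 gene lists (grey), with the median of each list over all libraries (black diamond), in females (open circle) and in males (open triangle); the dotted line is the median of all genes. Most medians lie close to 0, and the female and male medians of the olfactory bulb list are -2.275 and 0.923.

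**Figure D5:**
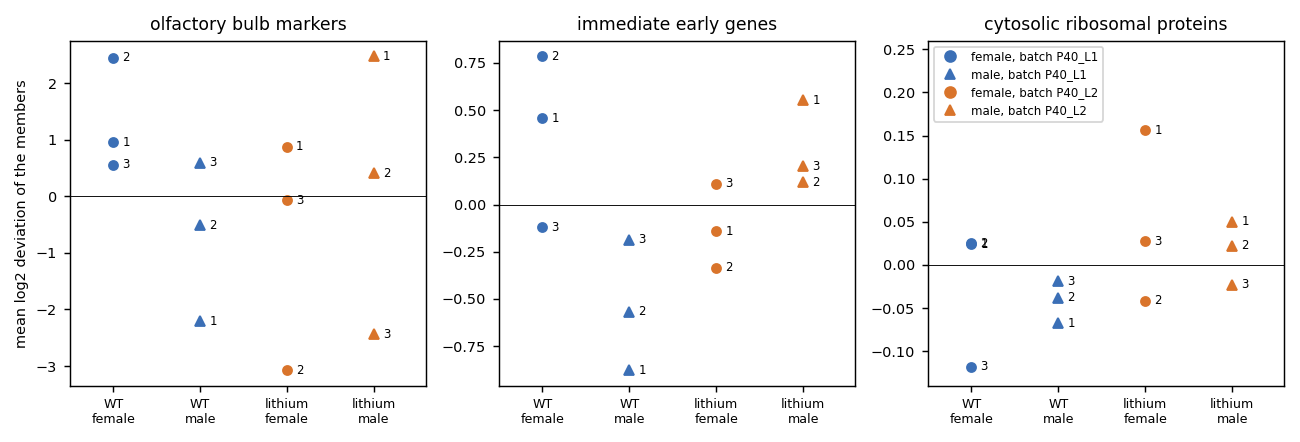
Score of 3 lists (mean log2 deviation of the members) in each of the 12 libraries, by arm and sex, with replicate numbers beside the points and colour for the batch. WT female 2 at 2.45 and HT lithium male 1 at 2.47 are highest for olfactory bulb markers, and WT males 1 and 2 are lowest for immediate early genes.

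The effect of arm differed between the sexes for 1 gene of 16782 (0.00596%) by limma, Xist, the RNA that silences the second X chromosome in females. At an unadjusted p under 0.05 there were 1608 genes for this difference, where 839 are expected by chance. With 1 library left out that number ran from 804 without WT female 2 to 3131 without HT lithium male 3, and it was 989 without HT lithium male 1. Other tools were not run on this difference. Xist stood at 21360, 38100 and 25330 in WT females and at 21550, 21860 and 21340 in lithium females. In males it stood at 0, 1.17 and 1.05 in WT and at 17.6, 11.3 and 16.3 in lithium. The change was -0.35 in females and 3.27 in males, a difference of 3.61 ± 0.41 (adjusted p = 0.0398). With 1 library left out the call held only without HT lithium male 2 or WT male 1, and it was lost with a pseudocount of 5. Ddx3y, from the Y chromosome, was at 0 in all 6 females and at 1257 to 1586 in the 6 males. The 3 lithium males are all of P40_L2, so batch and arm cannot be told apart here either.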

How the data were processed

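Bulk poly(A) RNA was sequenced from mouse prefrontal cortex at postnatal day 40, per the labels. The authors deposited one table of normalised signal for 18240 genes in 24 libraries (0 columns left unused). The build GRCm38 and the tools DESeq2 1.19.11, R 3.6.0 and Salmon 0.11.2 are named per the submitters' processing notes, without their roles or sequence. Values look like read counts divided by size factors: 100% were whole multiples of 1 read's value in the lowest library, within 0.01 of a read. The smallest mean in the table is 1.63, so lower genes had been left out. GENCODE M21 matched 18227 identifiers and missed 13.

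Genes with a mean of at least 10 over the 12 libraries (16782, leaving out 1458) were tested with limma 3.58.1 in R 4.3.3 on log2(value + 1), with an intensity trend and sex as a term. Adjusted p-values are Benjamini-Hochberg, called under 0.05. Whole reads recovered from the signal fed edgeR 4.0.16 and DESeq2 1.42.0 as alternatives. The steps were tested on simulated data. Named genes are the called ones, then the smallest p up to 20, Dyrk1a, and the 3 smallest p in each of 36 lists (645 symbols, 625 tested); the text names those that its results turn on, and a few others were chosen after their values were seen. The comparison and lists were chosen with earlier results of these data known. No pair of libraries agreed within sampling noise (smallest chi-square per gene 6.08).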

Additional observations from a re-analysis of the deposited data

Results flagged for a closer look

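Xist was flagged because the change with arm differed between the sexes by 3.61 on the log2 scale, from -0.35 in females to 3.27 in males. Single libraries were flagged where they lay far from the other 5 of their arm, among 324 groups looked at; chance flags about 1 in 20 groups. HT lithium male 1, the lithium library highest for olfactory bulb markers, stood apart for the bulb gene Cdhr1 at 8060, Gad2 at 6675, Dpf3 at 214.9, Dpf1 at 2036, Tcf7l1 at 172.5 and Ifit2 at 437 on the high side. It was low for Fcrls at 696.4, Ccnd1 at 1524 and Pclo at 7843. Its list scores were -0.65 for excitatory neuron markers, -0.43 for presynaptic vesicle release, -0.08 for heat shock chaperones and 0.53 for RNAs without a poly(A) tail. WT female 2, the WT library highest for bulb markers, was high for Cdhr1 at 7192, Slc6a3 at 125.1, Dpf3 at 210.2, Htr3a at 243.1 and Rsad2 at 70.97, and low for Ciart at 425.8. Its scores were -0.45 for excitatory neuron markers and -0.3 for presynaptic vesicle release.

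WT female 1 was high for the striatal genes Drd2 at 370.8, Adora2a at 542 and Rxrg at 384.5, and for Ugt8a at 1360 and Insig1 at 2185. WT male 3 was high for Rpl15-ps3 at 118.2, Map3k15 at 81.6, Ttr at 74.28, Igf2 at 3381 and Col1a2 at 1119, and its score on autism risk genes was -0.03. WT male 1 was low for Gabrg1 at 464.2. HT lithium female 1 was high for Drd2 at 81.26 and Rps18 at 3775 and low for Ash1l at 4407, and HT lithium female 3 was high for Ttr at 44.95.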

How the results depend on the processing

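The count of called genes was 1 with a pseudocount of 0.5, no filter, TMM scaling, no sex term, the bulb score as covariate or males alone. It was 0 with a pseudocount of 5, a mean of at least 50, edgeR, all 24 libraries, a batch term, the replicate block or without the 2 libraries highest for bulb markers, 3 in females alone and 7 with DESeq2. Libraries with the same replicate number did not deviate together (r from -0.373 to 0.0651, none best with its own number), so the replicate block pairs by number only. In males the called gene was Gm5641, and in females Gm12671, Gm28048 and Rps6-ps4. Leaving out each library in turn gave 0 to 3, and Rpl15-ps3 was called only without WT male 1. The arm by sex count was 1 with no filter and 0 with a pseudocount of 5, and 0 to 2 with each library left out, the second gene being Per1. The difference in Dyrk1a was 11.56% with TMM scaling and 10% to 13% with each library left out. Of 972 recomputed list medians, 31 moved by more than the spread between libraries. Of 3376 recomputed gene values, 3277 kept their direction and side of the threshold, 17 lost a call, 10 gained one and 72 changed sign. With a batch term in the 24-library fit, which rests on 1 fluoxetine library, the log2 change turned for Rpl15-ps3 0.928, Gm28048 1.153, Rpl17 -0.040, Foxp2 0.009, Tbr1 -0.007, Rorb -0.148, Bcas1 0.303, Drd2 0.213, Rxrg 0.075, Hba-a1 -0.008, Hbb-bs -0.011, Nkd1 0.021, Dusp1 -0.075, Dusp6 -0.018, Cplx1 0.017, Nsdhl 0.043, Lss 0.035, Rsad2 0.305, Ifi27 0.085, Dpf1 0.081. In females alone it turned for Ugt8a -0.084, C1ql1 -0.191, Col1a1 -0.022, Hist1h4h -0.004, Dyrk1b -0.012, Synj1 0.015, Ddit4 -0.067, Atp1b2 -0.020, Dusp1 -0.078, Arc -0.354, Gabrb2 0.033, Gabrg1 -0.032, Pclo 0.008, mt-Nd1 0.152, mt-Nd5 0.189, Nsdhl 0.029, Per1 -0.151, Bcl7c -0.005. In males alone it turned for Tbr1 -0.115, Rorb -0.213, Gad2 0.005, Fcrls -0.021, Trem2 -0.103, Slc6a3 0.491, Cdhr1 0.264, Hbb-bs -0.033, Hba-a2 -0.026, Gria1 0.077, Cplx1 0.003, mt-Nd4l 0.390, Ifit2 0.016, Rsad2 0.050, Dpf1 0.085, Dpf3 0.225. With the bulb score as covariate it turned for Rorb -0.001. Without the 2 libraries highest for bulb markers, an alternative chosen after seeing the data, it turned for Mog -0.006, Ugt8a -0.050. With 1 library left out, these crossed 0, with lowest and highest values of Tbr1 -0.007 and 0.392, Rorb -0.020 and 0.184, Ugt8a -0.023 and 0.165, Hbb-bs -0.048 and 0.144, Hba-a2 -0.050 and 0.119, mt-Nd4l -0.212 and 0.049, mt-Nd1 -0.207 and 0.004, mt-Nd5 -0.178 and 0.002. Genes below a filter gave no value there. The cause of these changes was not tested. With 6 libraries an arm the median standard error of a log2 change was 0.096. Differences near that size could not be detected, and differences of several standard errors could be missed too. Mxd4, at 0.25 ± 0.04, did not pass limma (adjusted p = 0.414).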

Other observations

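Of the genes whose 6 lithium libraries all lay on one side of all 6 WT libraries, several fall outside the genes named by p and were chosen after their values were seen. Cbs, which makes cystathionine from homocysteine, held 584 to 687 in WT and 689.6 to 769 in lithium. Gpr37l1, an astrocyte receptor, held 3668 to 4016 and 4073 to 4417. Dnm3, a neuronal dynamin, held 4005 to 4621 in WT and 3768 to 3956 in lithium. Rps10 of the 40S subunit held 2261 to 2664 and 2687 to 3205, and the translation elongation factor Eef1b2 held 2235 to 2394 and 2413 to 2587. None passed limma (adjusted p = 0.9999 for each).

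Of the gene lists not described above, the median log2 change was -0.004 for cholesterol synthesis (9 of 21 higher), -0.003 for endoplasmic reticulum chaperones (9 of 21), -0.004 for heat shock chaperones (8 of 17), 0.03 for clock genes (11 of 19), -0.05 for interferon response genes (3 of 15) and -0.05 for sodium and potassium transport genes (5 of 20). Excitatory neuron markers had a median of -0.003 (6 of 12), with 0.314 in females, -0.233 in males and 0.192 without HT lithium male 1. The median was -0.04 for late activity genes (3 of 15), 0.05 for endothelial and pericyte markers (10 of 15), 0.14 for choroid plexus markers (5 of 7), 0.05 for red blood cell genes (4 of 5) and -0.01 for RNAs without a poly(A) tail (2 of 6). Arntl, a core clock factor, stood at 804 ± 63.1 in WT and 706.9 ± 68.2 in lithium, a change of -0.19 ± 0.07 with 6 of 6 lithium libraries below the WT mean (limma adjusted p = 0.9999).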
